A study of Mus musculus with 50 samples.

Results

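The 32 genes described here encode the plasma and vessel-wall proteins that form a blood clot, restrain it and dissolve it. They were taken by symbol from a list of coagulation and fibrinolysis genes, and all 32 were among the 24984 genes of the deposited count tables. They were followed through 38 RNA-seq libraries in 10 groups of C57BL/6 mice. Kidney and liver came from untreated young mice aged 2.5 months and untreated old mice aged 23 to 25 months, which the study's methods give as female. In a separate set of mice aged 20 to 21 months, kidney and liver were taken after treatment with DMSO or with an agent labelled 3C, and skin fibroblasts labelled "P9 mice skin fibroblasts" were treated with DMSO or 3C. What 3C is, its dose and its duration are not given in the labels. There were 4 libraries in each kidney and liver group and 3 in each fibroblast group, and 12 ATAC-seq libraries of open chromatin covered young and old kidney and liver at 3 a group. The labels do not say whether the numbered replicates were separate mice, so p-values measure the spread between these libraries, which may be technical. Whole kidney and liver were measured in bulk, so fewer cells of a type and less RNA per cell cannot be told apart.

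Coagulation runs as a chain of proteases. Tissue factor on cells outside the vessel binds factor VII and starts the chain, the contact system of factor XII, prekallikrein and kininogen can start it from within the plasma, and both routes lead to factor X, which cuts prothrombin to thrombin. Thrombin then cuts fibrinogen to fibrin, and factor XIII crosslinks the fibrin strands. Antithrombin, heparin cofactor II, tissue factor pathway inhibitor and the protein C system hold the chain back, and plasmin, made from plasminogen by tissue-type and urokinase-type activators, dissolves the clot. Hepatocytes make most of the plasma factors, whereas the receptors and activators that sit on cell surfaces are made by endothelial cells, fibroblasts, leukocytes and epithelia.

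Library totals ran from 14.2 M to 43.7 M counts. Counts are given as CPM, the count per 1 M counts assigned to genes in that library, in the order of replicate number. Levels of different genes are compared as RPKM, which divides CPM by the kilobases of annotated exon. A gene was called changed at an adjusted p under 0.05 (edgeR quasi-likelihood F test, two-sided, Benjamini-Hochberg over all genes tested) together with a fold above 2 or below 0.5. The tissue labels held: 8 kidney epithelium markers summed to 18411 CPM or more in every kidney and to 23.7 CPM or less in every liver, and 8 fibroblast markers to 19170.1 CPM or more in the fibroblasts. Old kidney replicate 2 stood apart from the other kidneys. The summed level of 12 hepatocyte markers was 4289 CPM in it, against 118 to 160.2 CPM in the other 3 old kidneys and 91.7 to 130.2 CPM in the young kidneys. The median marker in old kidney replicate 2 stood at 2.81% of its mean level in old liver, and all 12 were detected there. In old kidney replicates 1, 3 and 4 that median was 0.0192%, 0.0439% and 0.0178% and in young kidneys 0.0084% to 0.0119%, and 1 to 4 of the 12 markers were at 0 in these 7. The kidney counts of called genes, and the values of the genes that passed a test, are therefore given with all 8 libraries and without that one.

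In young mice most plasma clotting factors were higher in liver than in kidney, with F13a1 the exception among those called, and the plasminogen activators and most receptors were higher in kidney. Of the 32 genes, 21 were called higher in liver than kidney and 7 lower, where 16.9% of all genes tested were called higher and 25.7% lower. Some of these had enough counts to be tested only through the tissue where they were high, and their calls rest on that tissue. F7, F9, F11, F12, Plg and F2 were among such genes higher in liver, and F13a1 among those lower. The median log2 difference was 4.72 over the 32 genes and -0.08 over all genes tested. The 4 genes at 0 counts in every young kidney (F7, F9, F11 and F12) left the median at 4.72 when they were set at the bound that the kidney counts allow. In the DMSO mice, a separate set, 20 were called higher and 9 lower, beside 15.7% and 26.6% of all genes, with medians of 5.76 and -0.07. Scaled by library totals alone, the median of all genes moved to -1.16 in young and -1.06 in DMSO mice, and the calls became 19 higher and 8 lower, and 18 higher and 10 lower, beside 8.82% and 55.5% of all genes in young and 8.01% and 52.1% in DMSO mice. With the replicate number as a block, which pairs kidney and liver in young mice, Vwf was added and 22 were called higher, beside 16.6% of all genes. Scaling by library totals turned the direction of Tfpi, Kng2 and Vwf in young mice and of F8 and Kng2 in DMSO mice.

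The 3 fibrinogen chains led the liver. Young liver held 2666 ± 270.2 RPKM of Fgg, 1922 ± 314 of Fga and 1507 ± 180.0 of Fgb (mean ± SD, n = 4), followed by kininogen 1 (Kng1, 884 ± 100.3), plasminogen (Plg, 848 ± 50.8) and prothrombin (F2, 522 ± 29.0). Together the fibrinogen chains took 1.60% to 1.96% of all counts in a young liver library and 0.0057% to 0.0077% in a young kidney library. Liver exceeded kidney by a log2 difference of 10.79 ± 0.33 (SE) for Fgb, 9.54 ± 0.27 for Fgg and 8.11 ± 0.29 for Fga. Of the vitamin K dependent proteases, F2, F7, F9 and F10 were close to absent from young kidney, whereas protein C was not. Pooled over 4 libraries, F7 was at least 3971-fold and F9 at least 6083-fold higher in liver, where the kidney was taken at a floor of 3 counts. F2 was 6668-fold higher (95% counting interval 4551 to 10208, 26 counts in kidney) and F10 was 1007-fold higher (742 to 1404, 41 counts in kidney). For plasminogen a single count was found in 4 young kidneys, beside 276027 in young liver. Intervals and floors of this kind cover counting error only.

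Urokinase (Plau) was the most abundant of the 32 in young kidney at 364 ± 8.07 RPKM and stood at 0.531 ± 0.248 in young liver, a log2 difference of -8.35 ± 0.29. Kininogen 2 (Kng2, 177 ± 18.7 RPKM) and the carrier subunit of factor XIII (F13b, 86.7 ± 6.77) followed it in kidney, then the plasmin inhibitor Serpinf2 (44.3 ± 8.20) and protein C (Proc, 34.3 ± 5.84). Of these F13b, Serpinf2 and Proc were called higher in liver, where they stood at 121 ± 9.22, 413 ± 45.2 and 225 ± 35.9 RPKM, and Kng2 stood at 131 ± 13.7. Scaled by library totals alone, F13b was not called in young or in DMSO mice (log2 difference 0.48 and 0.74). Kng1 and Kng2 are close paralogs, so reads that matched both may have been set aside in the counting, and both levels are uncertain. Tissue-type activator (Plat), the urokinase receptor (Plaur), the catalytic subunit of factor XIII (F13a1), thrombomodulin (Thbd), tissue factor (F3) and the thrombin receptor F2r were called lower in liver, with log2 differences from -1.30 (F2r) to -5.84 (Plat). In the skin fibroblasts 9 of the 32 exceeded 1 RPKM, against 25 in young liver and 20 in young kidney. DMSO fibroblasts held 118 ± 15.9 RPKM of Thbd, 107 ± 9.38 of F2r and 87.5 ± 10.6 of F3 (n = 3), each above its mean in any kidney or liver group. No fibroblast library had a count for 8 of the 32 genes in the DMSO group, among them Fga, Fgg and Plg.

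**Figure D1:**
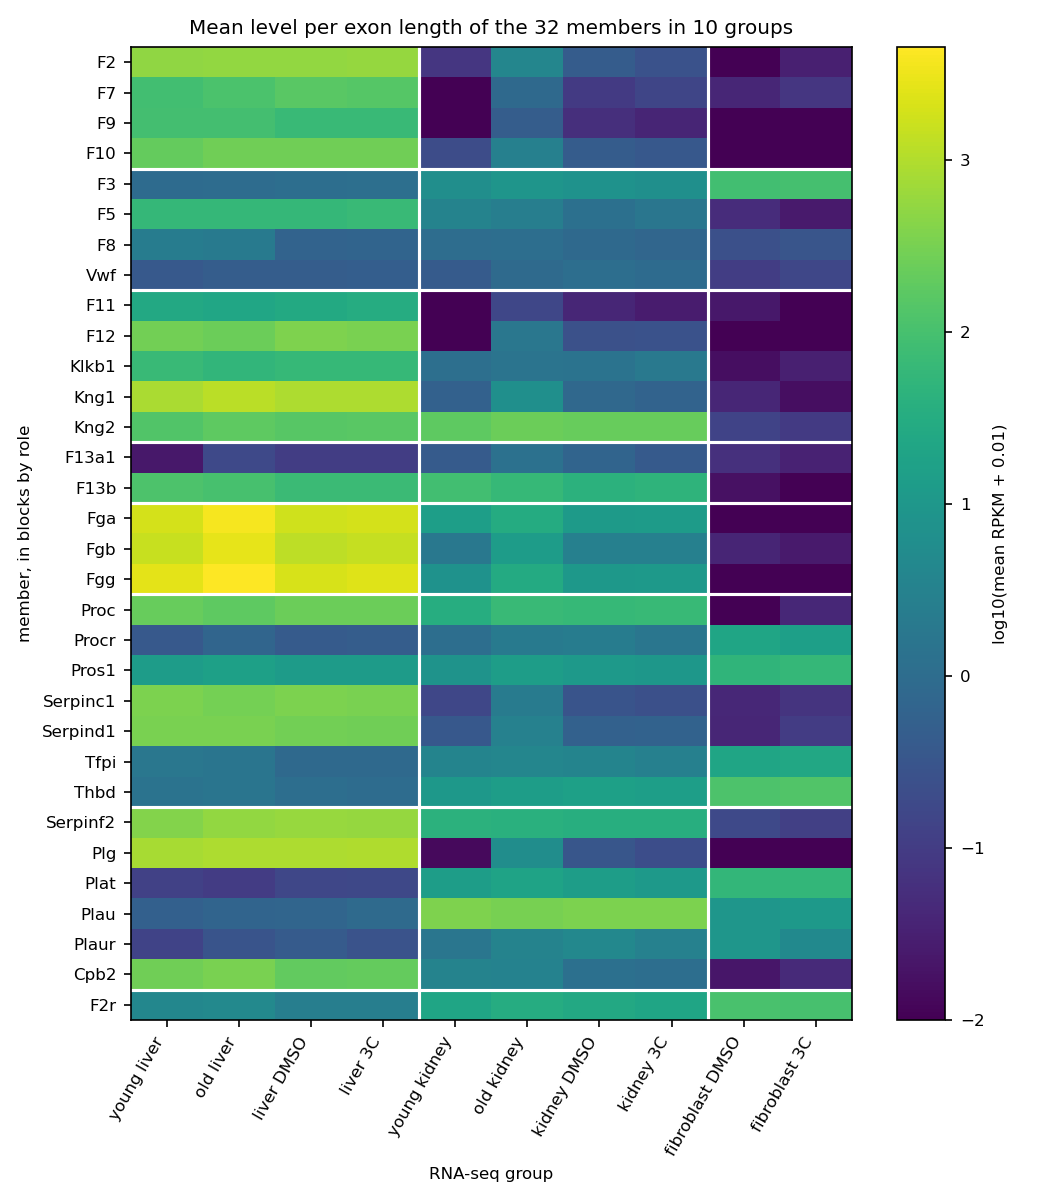
Mean level of the 32 genes (rows, by role) in the 10 RNA groups (columns), as log10 of mean RPKM plus a small constant, with n = 4 a group and n = 3 for fibroblasts. Plasma factors are high in the 4 liver columns, Plau, Kng2 and F13b are high in the 4 kidney columns, and Thbd, F2r and F3 are high in the 2 fibroblast columns.

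The promoters of the fibrinogen chains and of F13b are shown because the ageing comparisons turn on the kidney and liver levels of these genes, the fibrinogen chains being hepatocyte products and F13b being abundant in both tissues. Each run is the stretch before the RefSeq gene start in GRCm38.p6, 5′ to 3′ on the strand of the gene, ended before any annotated exon, and lies upstream of the gene outside its exons and introns. Capitals mark matches to the HNF1 recognition core (GTTAAT or its reverse complement ATTAAC) or to the C/EBP core (TTGCNNAA), both searched on either strand. Fga lies at chr3:83025953-83026075, plus strand, Fgb at chr3:83049864-83050063, minus strand, Fgg at chr3:83007524-83007723, plus strand, and F13b at chr1:139501507-139501701, plus strand.
Fga: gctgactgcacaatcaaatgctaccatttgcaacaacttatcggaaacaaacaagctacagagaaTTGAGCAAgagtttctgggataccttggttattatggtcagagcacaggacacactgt
Fgb: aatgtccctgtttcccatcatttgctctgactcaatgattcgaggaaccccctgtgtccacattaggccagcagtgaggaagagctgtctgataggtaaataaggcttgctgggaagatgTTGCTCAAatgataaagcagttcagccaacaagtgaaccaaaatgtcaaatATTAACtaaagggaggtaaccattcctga
Fgg: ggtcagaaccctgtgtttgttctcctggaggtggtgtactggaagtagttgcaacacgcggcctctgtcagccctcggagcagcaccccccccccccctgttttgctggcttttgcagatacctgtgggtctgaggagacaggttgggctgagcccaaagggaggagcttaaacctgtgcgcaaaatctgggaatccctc
F13b: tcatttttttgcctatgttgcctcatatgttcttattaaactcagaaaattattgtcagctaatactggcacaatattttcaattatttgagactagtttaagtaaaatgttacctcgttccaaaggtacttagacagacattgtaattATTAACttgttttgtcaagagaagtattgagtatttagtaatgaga
Fga and Fgb each held a C/EBP core, and Fgb and F13b each held an HNF1 core in the letters shown, with no overlap between the matches in capitals. An HNF1 core of Fga lay closer to its RefSeq start, in bases that GENCODE places in an exon, and is not shown. Fgg held neither. RefSeq promoters could be matched for 25 of the 32 genes, and 7 motifs were searched over the 200 bases before the start. A C/EBP core was present in 7 of the 25 (28.0%) and in 8.55% of all 27020 genes with a promoter, and an HNF1 core in 3 (12%) and 5.89%. The AP-1 core TGANTCA was present in 5 (F2, F3, Fgb, Procr and Plaur, 20.0%) and in 6.36% of all. The ETS core AGGAAG was present in 5 (20.0%) and 27.3%, TATAAA in 2 (8.0%) and 11.7%, the HNF4 core AAAGTCC in 1 (4.0%) and 3.32%, and the GATA core AGATAA in 1 (4.0%) and 8.99%. These are matches of letters and not shown to be bound sites.

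In the kidney, old mice had more F10 and F13a1 transcript than young mice. Of the 32 genes, 27 had enough counts to be tested. Of these, 3 were called higher (F10, F13a1 and F2) and none lower, where 5.68% of all 14495 genes tested were called higher and 0.407% lower. F2 had enough counts to be tested only through the old kidneys, where it was high. No age call is read from it, with all libraries or without old kidney replicate 2. At an adjusted p under 0.05 alone 6 were higher and 1 lower (8.15% and 3.36% of all genes). DESeq2 called 3 higher (F10, F13a1 and Vwf) and none lower, beside 6.47% and 0.724% of all genes. The median log2 fold change was 0.77 over the 27 and 0.02 over all genes, and 22 of the 27 lay above 0. The old kidneys did not overlap the young ones for 10 genes that were higher and 1 that was lower (13.5% and 3.85% of all genes). Without old kidney replicate 2, the 27 genes gave 4 called higher (F10, F13a1, F2 and Proc) and 1 lower (F5), beside 5.90% and 2.32% of all genes, and a median of 0.43 beside 0.03. At an adjusted p alone they then gave 9 higher and 2 lower (11.5% and 12.2%), and groups did not overlap for 11 higher and 3 lower (19.2% and 9.33%). Leaving out young kidney replicate 2 instead gave 1 called higher (4.05% of all genes), and leaving out old kidney replicate 3 gave 7 (5.77%).

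**Figure D2:**
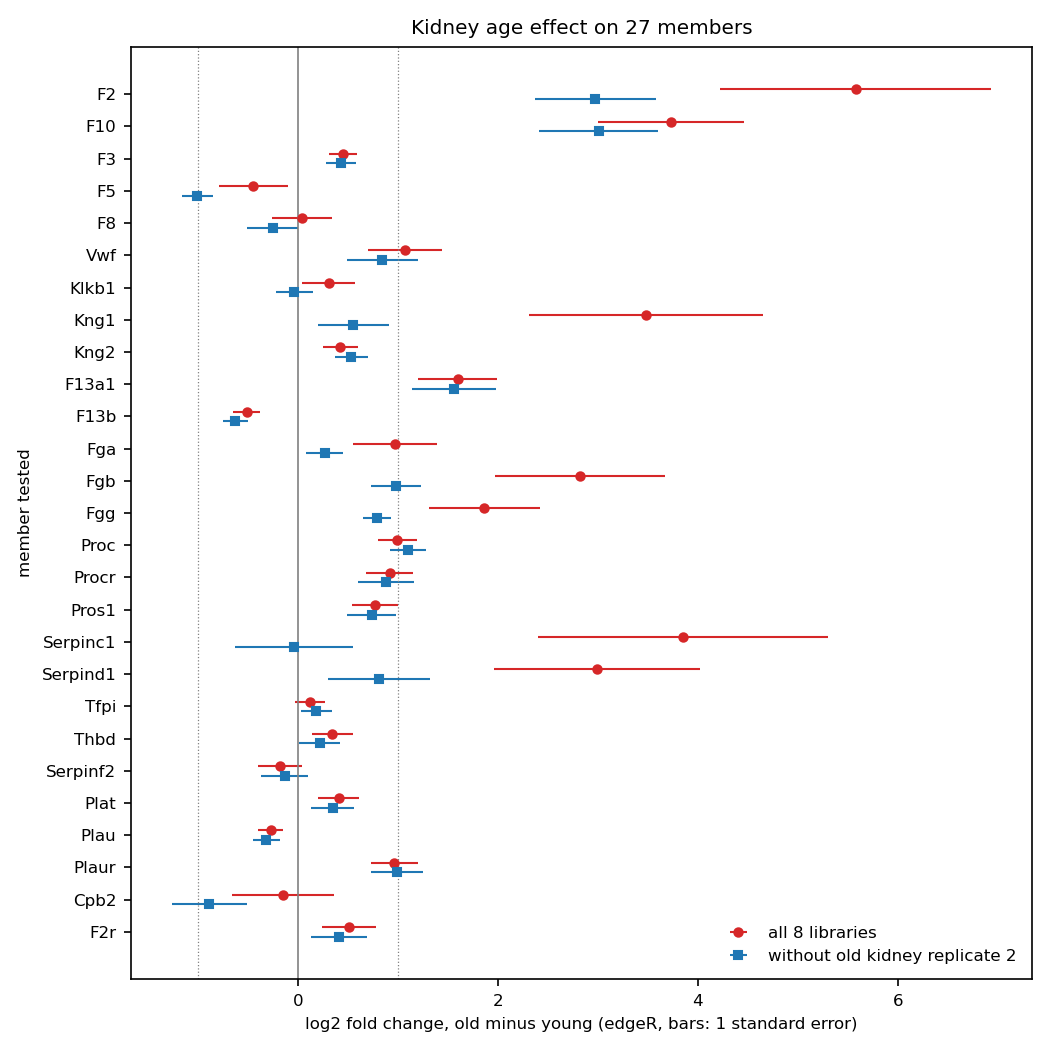
Log2 fold change of old against young kidney ± 1 SE for the 27 genes tested, with all 8 libraries and without old kidney replicate 2. Hepatocyte products such as Serpinc1, Kng1 and Fgb lie far to the right with all libraries and move towards 0 without it, whereas F13a1, Proc, Plaur and Procr move little and F5 moves to the left.

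Among the vitamin K dependent proteases, factor X (F10) is the enzyme that makes thrombin. It measured 0.546, 0.548, 0.211 and 0.895 CPM in the young kidneys and 3.94, 17.9, 1.38 and 8.58 CPM in the old ones. All 4 old kidneys were above all 4 young ones, and the highest were replicates 2 and 4. The difference was 13.3-fold (log2 fold change 3.73 ± 0.73 (SE), adjusted p = 0.0102) and 8.04-fold without replicate 2 (log2 fold change 3.01 ± 0.59, adjusted p = 0.00945), and F10 was called under all 14 alternatives tried. Prothrombin (F2) measured 0.109, 0.777, 0.0702 and 0.335 CPM in the young kidneys, 26 counts in all, and 2.02, 64.0, 3.04 and 3.07 CPM in the old ones. The groups did not overlap, and replicate 2 was far above the other 3. With all 8 libraries the log2 fold change was 5.58 ± 1.35 (adjusted p = 0.0269), and without replicate 2 the difference was 7.85-fold (log2 fold change 2.97 ± 0.61, adjusted p = 0.0105). As F2 had enough counts to be tested only through the old kidneys, no age call is read from these values. The call was lost when any 1 of the young kidneys was left out. Old kidney replicates 1, 3 and 4 held F2 at 0.0818%, 0.123% and 0.124% of its mean level in old liver, and young kidneys at 0.0029% to 0.0324%. The median hepatocyte marker was also higher in those 3 old kidneys than in every young one (the percentages given above), and its part in the level of F2 was not tested. F7 and F9 were too low to be tested. They were at 0 in every young kidney and gave 51 and 18 counts in old kidneys other than replicate 2, at least 14.2-fold and 5.02-fold higher with young kidney taken at the floor of 3 counts. F7 measured 0.886, 4.71, 0.0447 and 0.732 CPM in the old kidneys, so replicate 3 had almost none.

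The subunits of the fibrin-crosslinking enzyme differed in direction, F13a1 higher and F13b lower in old kidney. The catalytic subunit F13a1, which macrophages and platelets also make, measured 2.57, 3.66, 3.44 and 1.29 CPM in young kidneys and 5.12, 9.59, 4.87 and 14.5 CPM in old ones. No old kidney was below a young one, and replicates 2 and 4 were the highest. The rise was 3.02-fold (log2 fold change 1.60 ± 0.39 (SE), adjusted p = 0.0282), and 2.95-fold without replicate 2 (adjusted p = 0.0272), and it missed the threshold in 5 of 14 alternatives. The carrier subunit F13b, a product of kidney and liver, measured 234, 218, 231 and 196 CPM in young kidneys and 156, 204, 139.9 and 129 CPM in old ones. Replicate 2 was the only old kidney within the young range. F13b fell by a fold of 1.43 young over old (log2 fold change -0.51 ± 0.14 (SE), adjusted p = 0.0373), and by 1.54 without replicate 2 (log2 fold change -0.63 ± 0.12, adjusted p = 0.00959). It passed the adjusted p in 6 of 14 alternatives and the fold threshold in none.

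Protein C, its receptor and the urokinase receptor were all higher in old kidney with adjusted p values under 0.05. Protein C (Proc), the anticoagulant protease that cuts factors V and VIII, measured 65.4, 84.4, 91.4 and 99.2 CPM in young and 190.0, 143, 202 and 156 CPM in old kidneys. The lowest old kidney exceeded the highest young one, and here replicate 2 was the lowest of the old. Its fold was 1.99 (log2 fold change 0.99 ± 0.19 (SE), adjusted p = 0.0101), just under 2, and 2.14 without replicate 2 (log2 fold change 1.100 ± 0.18, adjusted p = 0.00467). The adjusted p stayed under 0.05 in all 14 alternatives. The endothelial protein C receptor (Procr) measured 2.62, 1.83, 2.53 and 1.85 CPM in young and 3.45, 4.84, 3.48 and 5.26 CPM in old kidneys, with no overlap. It rose 1.89-fold (log2 fold change 0.92 ± 0.23 (SE), adjusted p = 0.0333) and 1.84-fold without replicate 2 (adjusted p = 0.0450), and passed the adjusted p in 7 of 14 alternatives. The urokinase receptor (Plaur), which holds urokinase at the cell surface, measured 6.34, 3.43, 3.65 and 3.97 CPM in young and 7.78, 8.68, 6.79 and 11.4 CPM in old kidneys. Every old kidney was above every young one, and replicate 4 was the highest. It rose 1.95-fold (log2 fold change 0.96 ± 0.23 (SE), adjusted p = 0.0269), 1.98-fold without replicate 2 (adjusted p = 0.0247), and passed the adjusted p in 10 of 14 alternatives.

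**Figure D3:**
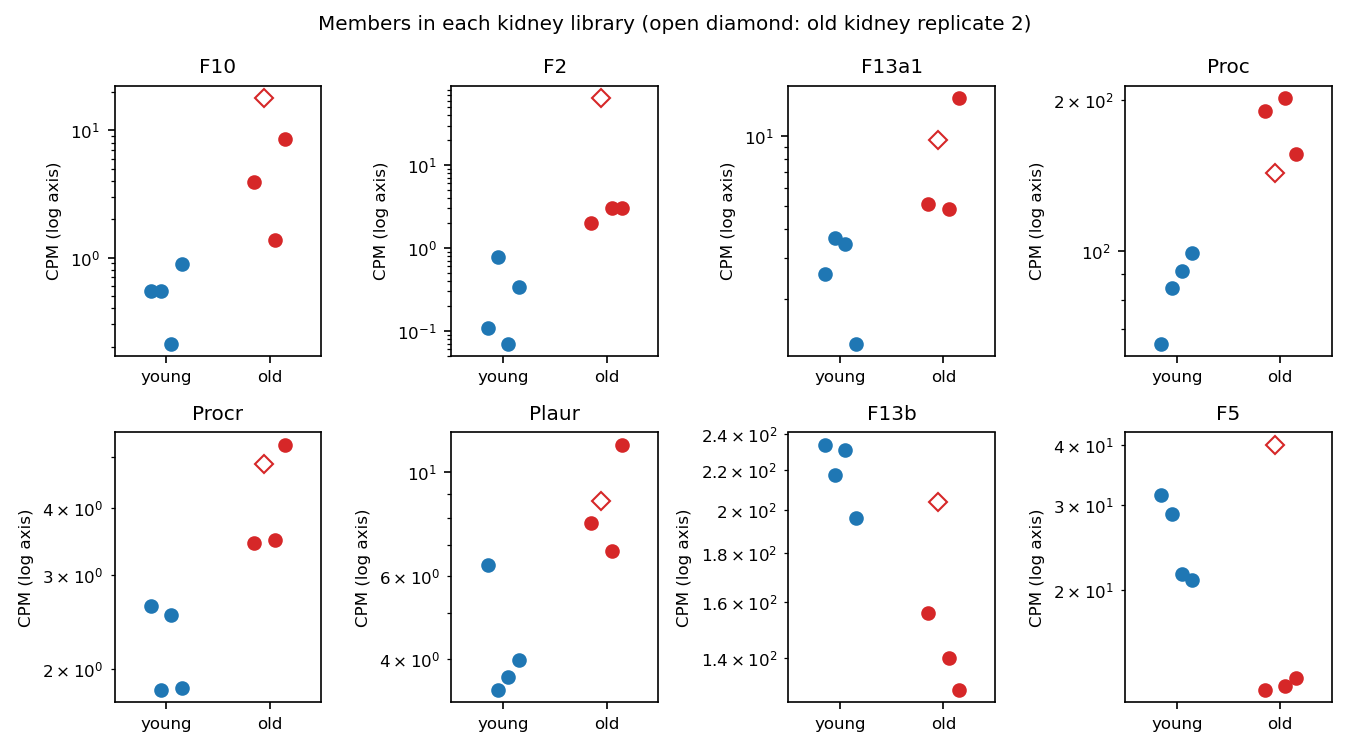
CPM on a log axis of 8 genes in each young and old kidney library (n = 4 a group), with old kidney replicate 2 as an open diamond. The old kidneys lie above the young ones for F10, F2, F13a1, Proc, Procr and Plaur, and for F5 and F13b replicate 2 is the only old kidney that is not below all young ones.

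Markers of other cells moved with age in the same kidneys. The summed level of 10 macrophage markers was 393, 637, 413 and 859 CPM in old kidneys and 118 to 147 CPM in young ones, and among its markers Clec4f was at 0 in every young kidney and reached 10.04 CPM in old kidney replicate 2. The 6 B and plasma cell markers summed to 375 to 559 CPM in old and 5.62 to 11.02 CPM in young kidneys, the 8 platelet and megakaryocyte markers to 14.2 to 20.8 and 8.78 to 11.9 CPM, and the 5 T cell markers to 15.8 to 28.8 and 4.30 to 5.30 CPM. Old and young kidneys did not overlap for these 4 lists. They overlapped for the 9 endothelial markers (425 to 594 CPM in old and 392 to 549.7 in young), the 8 fibroblast markers (327 to 814 and 359 to 421), the 5 mural cell markers (231 to 355 and 263 to 296) and the 4 mesothelial markers (39.0 to 60.1 and 27.3 to 46.9). The kidney epithelium markers overlapped too (21962 to 29917 and 28181 to 33259 CPM), although Slc34a1 was lower and Umod higher in old kidneys without overlap. The higher platelet and megakaryocyte sum came mostly from Itga2b (mean 5.83 CPM in young and 9.92 in old) and Pf4 (1.52 and 4.89). Ppbp, Gp9 and Gp6 were also higher in mean, whereas Gp1ba (2.12 and 1.61), Gp1bb (0.237 and 0.0798) and Treml1 (0.0956 and 0.0395) were lower. The part of any of these cells in the levels of F10, F13a1, F13b, Plaur and Procr was not tested.

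Leaving out old kidney replicate 2 changed the call or the adjusted p of 4 more genes. Factor V (F5), the cofactor of factor X, measured 31.4, 28.7, 21.6 and 21.0 CPM in young and 12.4, 40.01, 12.7 and 13.2 CPM in old kidneys. Old replicates 1, 3 and 4 lay below all young kidneys and replicate 2 above all of them. The log2 fold change was -0.45 ± 0.35 (adjusted p = 0.410) with it and -1.01 ± 0.16 (adjusted p = 0.00365) without it, a fold of 2.01 young over old. Fgg measured 14.97, 17.0, 18.8 and 13.5 CPM in young and 25.2, 163, 27.9 and 30.1 CPM in old kidneys. All old kidneys were above the young ones, and replicate 2 stood alone. Its adjusted p was 0.0582 with replicate 2 and 0.00655 without it, when the fold was 1.72 (0.79 ± 0.14 on the log2 scale). Fgb, the beta chain, had 7.10, 5.85, 9.55 and 5.37 CPM in young and 17.5, 167, 12.8 and 10.7 CPM in old kidneys. Its lowest old kidney was above its highest young one, and the fold without replicate 2 was 1.98 (adjusted p = 0.0226, against 0.0595 with it). Fga measured 34.5, 37.9, 48.9 and 54.7 CPM in young and 50.1, 202, 54.7 and 54.9 CPM in old kidneys, where the groups overlapped and the log2 fold change without replicate 2 was 0.27 ± 0.18 (adjusted p = 0.305). Kininogen 2 (Kng2) measured 464, 453, 463 and 561 CPM in young and 717, 538, 786 and 603 CPM in old kidneys. Old replicate 2 lay within the young range, and without it the fold was 1.45 (log2 fold change 0.53 ± 0.16, adjusted p = 0.0413).

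The remaining genes tested in kidney were not called in edgeR with or without that library. Antithrombin (Serpinc1), Kng1 and heparin cofactor II (Serpind1) measured 73.5, 78.6 and 22.9 CPM in old kidney replicate 2 and at most 1.56, 4.14 and 1.97 CPM in the other old kidneys. Their log2 fold changes were 3.85, 3.48 and 2.99 with it and -0.04, 0.55 and 0.81 without it. Of the exon length of Serpinc1, 34.43% is shared with Zbtb37 on the opposite strand, and strand was not used in the counting, so its low kidney counts cannot be assigned to it alone. Plasminogen gave 2109 counts in old kidneys, of which 3 came from libraries other than replicate 2. F12 gave 334 counts, 4 outside replicate 2, and F11 gave 33, none outside it. Von Willebrand factor (Vwf), which carries factor VIII and tethers platelets, measured 11.1, 5.53, 6.95 and 2.85 CPM in young and 9.60, 21.4, 9.47 and 16.5 CPM in old kidneys, which overlapped (log2 fold change 1.07 ± 0.37 (SE), adjusted p = 0.0898). Protein S (Pros1), the cofactor of protein C, measured 33.5, 32.6, 34.6 and 28.6 CPM in young and 40.5, 64.7, 35.2 and 88.4 CPM in old kidneys, with no overlap and an adjusted p of 0.0559. Urokinase (Plau) measured 883, 869, 844 and 846 CPM in young and 796, 839.7, 556 and 728 CPM in old kidneys, all old libraries below the young ones (log2 fold change -0.27 ± 0.12 (SE), adjusted p = 0.168). Tissue factor, Plat, Thbd, F2r and Tfpi had log2 fold changes of 0.45, 0.41, 0.35, 0.51 and 0.12, and Klkb1, Serpinf2, F8 and Cpb2 of 0.31, -0.18, 0.04 and -0.15. Without old kidney replicate 2 these were 0.43, 0.35, 0.22, 0.41 and 0.18, and -0.04, -0.13, -0.25 and -0.89, so that Klkb1 and F8 turned in sign and Cpb2 moved furthest. Plat, Thbd, F2r, Pros1 and Vwf were higher in old replicates 2 and 4 than in 1 and 3, as were the endothelial markers (425, 572, 453 and 594 CPM in old kidneys) and the fibroblast markers (327, 696, 403 and 814 CPM), whose part in these levels was not tested.

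In the liver no gene of the 31 tested was called with age. The tool was edgeR, 1.69% of all 12537 genes tested were called higher and 0.439% lower, and 2 of the 31 had an unadjusted p under 0.05 (Klkb1 and Fga). DESeq2 called none either, beside 3.85% of all genes higher and 0.893% lower, with 3 at an unadjusted p under 0.05. The median log2 fold change was 0.07 over the 31 genes and 0.003 over all genes. Old livers did not overlap young ones for 1 gene that was higher (Serpinf2) and none that was lower, beside 6.72% and 2.46% of all genes.

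The fibrinogen chains had higher means in old than in young liver, which rested on 2 of the old livers, and none passed the test. Fga measured 5633, 6087, 6840.1 and 4577 CPM in young and 15431, 5179.9, 17310.2 and 6949.9 CPM in old livers. Old replicates 1 and 3 were above every young liver, and replicates 2 and 4 were close to them. The log2 fold change was 0.97 ± 0.43 (SE, adjusted p = 0.326, unadjusted p = 0.0455). Fgb measured 5338, 5082, 6625 and 5920.2 CPM in young and 15389, 5634, 14778 and 6265 CPM in old livers (log2 fold change 0.87 ± 0.42 (SE), adjusted p = 0.376). Fgg measured 5479, 4838, 6151 and 5849.8 CPM in young and 14363, 5015, 13078 and 5643 CPM in old livers (log2 fold change 0.78 ± 0.42 (SE), adjusted p = 0.459). All 3 chains were high in old replicates 1 and 3 and overlapped the young range or lay near it in replicates 2 and 4. As a share of all counts the fibrinogen chains took 1.58% to 4.52% in old livers and 1.60% to 1.96% in young ones.

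Other genes differed between the same old livers. Kininogen 1 (Kng1), which carries bradykinin, measured 4814, 2689.9, 5096 and 2759.8 CPM, Kng2 measured 573, 391, 614 and 364 CPM, and the fibrinolysis inhibitor Cpb2 measured 664, 402, 769.6 and 376 CPM, each highest in old replicates 1 and 3. Prekallikrein (Klkb1) measured 364, 349, 379.8 and 311 CPM in young and 225, 339, 218 and 322 CPM in old livers, lowest in replicates 1 and 3 (log2 fold change -0.42 ± 0.18, unadjusted p = 0.0368, adjusted p = 0.295). F13b measured 222, 318, 191 and 283 CPM in old livers and was low in the same replicates. Klkb1 shares 43.19% of its exon length with another annotated gene, so its counts are uncertain. The adjacent genes F7 and F10 on chromosome 8 were both highest in old liver replicate 1, at 355 and 1113 CPM against 157 to 183 and 581 to 634 CPM in the other old livers. In DMSO livers they were both highest in replicate 3, at 524 and 1021 CPM against 197 to 261 and 619.7 to 754 CPM.

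Acute phase genes, which hepatocytes raise in inflammation, were looked at after these values were seen. Serum amyloid A1 (Saa1) measured 46.6, 28.7, 31.2 and 46.6 CPM in young and 2246, 53.4, 10038 and 139 CPM in old livers. Haptoglobin (Hp) measured 9398, 2763, 18853 and 3669.8 CPM and lipocalin 2 (Lcn2) 1218, 72.3, 2565 and 90.8 CPM in old livers. All 3 were highest in old replicates 1 and 3, the libraries with the most fibrinogen. In 3C livers Saa1 measured 369.8, 6962, 31.3 and 76.3 CPM and Hp 5615, 19242, 2421 and 3069.9 CPM, and the fibrinogen chain Fga in the same livers measured 6181, 6667, 4418 and 5894 CPM. Replicate 2 of the 3C livers was highest for all of these, though its Fga lay near that of the other 3C livers and far under that of old livers 1 and 3. The part of an acute phase state in the fibrinogen levels was not tested.

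**Figure D4:**
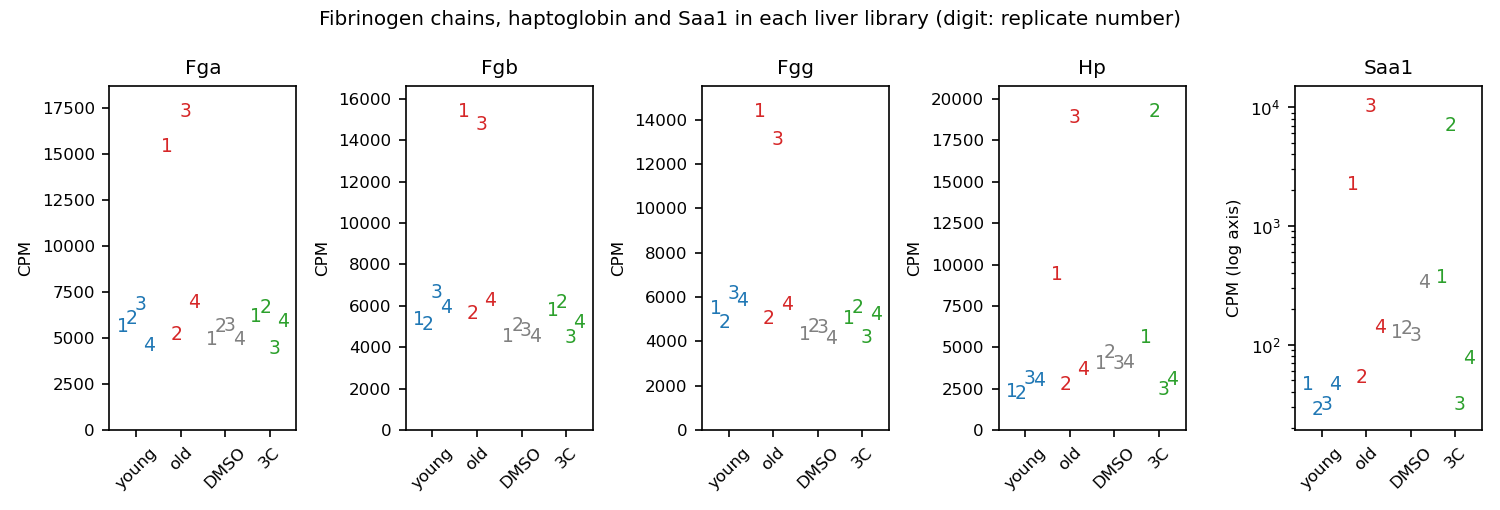
CPM of Fga, Fgb, Fgg and haptoglobin (linear axes from 0) and Saa1 (log axis) in each liver library of the young, old, DMSO and 3C groups (n = 4 a group), where digits give the replicate number. Old replicates 1 and 3 lie above all other livers for the 3 fibrinogen chains, and for Hp and Saa1 they are high together with 3C replicate 2.

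F13a1 had too few counts in liver to be tested, with 8 counts in 4 young livers and 100 in 4 old livers. It measured 0.0453, 0.0439, 0.0966 and 0.180 CPM in young and 1.09, 0.487, 2.88 and 0.172 CPM in old livers. The old livers ranged widely, and replicate 4 lay within the young range. The pooled ratio of old to young was 11.8 (95% counting interval 5.76 to 28.1). Replicate 3 held 58 of the 100 counts, and without it the ratio was 6.32 (2.93 to 15.6), against 11.7 to 15.1 without any other old liver. The 10 macrophage markers summed to 844 to 1493 CPM in old and 555 to 762 CPM in young livers. The 8 platelet and megakaryocyte markers summed to 8.92, 6.49, 13.5 and 4.76 CPM in old livers, in the same order of libraries as F13a1, and to 3.91 to 4.62 CPM in young ones. Among them Ppbp, Pf4 and Itga2b followed that order. Gp1ba ran the other way (0.612, 1.01, 0.298 and 1.03 CPM), and the other markers had few counts. The part of macrophages or of platelets in the level of F13a1 was not tested.

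Whether age acted differently in the tissues was tested by the interaction of age and tissue. At an adjusted p under 0.05, 2 of the 32 genes were called, F2 and F10, with an age effect lower in liver than in kidney, where 0.845% of all genes were called lower and 0.871% higher. The liver minus kidney difference of the log2 age effects was -5.51 ± 1.30 (SE) for F2 (edgeR adjusted p = 0.0407) and -3.29 ± 0.78 for F10 (adjusted p = 0.0412). F10 measured 569, 593, 534 and 585 CPM in young and 1113, 611, 634 and 581 CPM in old livers, which overlapped, beside kidneys which did not. Without old kidney replicate 2, F2 (-2.96, adjusted p = 0.0153) and Proc (-1.50, adjusted p = 0.0421) passed and F10 did not (adjusted p = 0.0633), where 0.634% of all genes were called lower and 0.469% higher. F9 entered these fits through its liver counts alone, with young kidneys at 0, and no difference is read from it. F2 entered them through its liver and old kidney counts, with 26 counts in young kidneys, and no difference is read from F2 either. F2 was lost in 13 of 21 and F10 in 14 of 22 alternatives. Leaving out any 1 young kidney or young liver, or old liver replicate 2, 3 or 4, gave 0 calls (0.427% to 0.833% of all genes lower), leaving out old kidney replicate 4 gave 1 (0.601%), and with the replicate number as a block none was called (0.499%).

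In skin fibroblasts the urokinase receptor was lower with 3C than with DMSO. Of the 32 genes 11 could be tested, 1 was called lower and none higher, beside 0.632% and 1.23% of all 13449 genes tested. At an adjusted p alone 2 were lower and none higher (1.78% and 2.43%). Plaur measured 24.7, 24.8 and 23.4 CPM with DMSO and 13.1, 12.2 and 12.3 CPM with 3C. The groups were far apart and each was tight. The level fell by a fold of 2.01 DMSO over 3C (log2 fold change -1.004 ± 0.12 (SE), adjusted p = 0.00184), and the adjusted p stayed under 0.05 in all 12 alternatives, though the fold was under 2 in 4 of them (library totals alone, and without DMSO replicate 1, DMSO replicate 2 or 3C replicate 2), which then gave 0 calls, beside 0.371% to 0.562% of all genes lower. The protein C receptor Procr measured 45.4, 42.1 and 42.7 CPM with DMSO and 35.6, 26.9 and 32.6 CPM with 3C, without overlap. It fell by a fold of 1.42 (log2 fold change -0.51 ± 0.13 (SE), adjusted p = 0.0493) and passed in 4 of 12 alternatives. Some markers of other cells moved in the same cultures. The macrophage markers summed to 75.8 to 91.4 CPM with DMSO and 40.2 to 62.5 CPM with 3C without overlap, and the mean was lower for 7 of 10, higher for 1 and 0 in both for 2. The mural cell markers summed to 3677 to 3920.2 and 2683 to 3076 CPM without overlap, with Acta2, Tagln and Myh11 lower and Pdgfrb and Cspg4 higher in mean. The lower sum of the platelet and megakaryocyte markers (47.7 to 55.1 and 28.2 to 34.0 CPM) came from Ppbp, with means of 24.0 and 1.23 CPM, while Itga2b (7.03 and 9.21 CPM) and Gp1bb (16.5 and 18.6 CPM) were higher in mean. The endothelial markers summed to 9.80 to 10.04 CPM with DMSO and 10.98 to 13.7 CPM with 3C, higher without overlap. Fibroblast markers overlapped (19170.1 to 25544 and 19727 to 25210 CPM), and the part of any of these in Plaur and Procr was not tested. The other 9 genes tested had log2 fold changes from -0.13 (F2r) to 0.51 (Vwf), among them F3 at 0.11 ± 0.12 and Thbd at 0.14 ± 0.13. F3, Thbd and F2r were the most abundant of the 32 there. Groups did not overlap for 2 genes higher (Pros1 and Tfpi) and 2 lower, beside 15.9% and 9.93% of all genes. The median over the 11 was 0.14 and over all genes 0.007.

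The promoters of Plaur and Procr are shown because these were the 2 genes that passed the adjusted p with 3C in fibroblasts. Of the 5 genes with an AP-1 core, F2 and Fgb could not be tested there, Plaur and Procr fell, and F3 did not pass (0.11 ± 0.12 on the log2 scale). The promoters were chosen after the values were seen, and only the AP-1 core TGANTCA is in capitals. Plaur also held a C/EBP core at position -59 from the RefSeq start and an ETS core at -130, which are not in capitals. Plaur is taken from chr7:24462283-24462482, plus strand, and Procr from chr2:155751017-155751116, plus strand, both upstream of the gene in GRCm38.p6 (RefSeq).
Plaur: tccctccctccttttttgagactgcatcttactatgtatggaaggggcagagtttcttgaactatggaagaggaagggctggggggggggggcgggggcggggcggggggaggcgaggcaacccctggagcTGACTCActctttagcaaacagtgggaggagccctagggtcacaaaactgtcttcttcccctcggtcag
Procr: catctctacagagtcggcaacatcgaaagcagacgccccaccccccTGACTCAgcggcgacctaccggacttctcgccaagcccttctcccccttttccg
The first base of the core lay at position -69 from the RefSeq start of Plaur and at -154 from that of Procr, and both read TGACTCA on the strand of the gene.

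In kidney and liver of the 20 to 21 month old mice no gene of the 32 was called with 3C. In kidney 28 were tested with edgeR, none was called, and 3 had an unadjusted p under 0.05. DESeq2 called none, with 4 at an unadjusted p under 0.05, and edgeR called 0% of all genes and DESeq2 0% higher and 0.0534% lower. Prekallikrein (Klkb1) measured 6.36, 8.41, 8.53 and 6.93 CPM with DMSO and 11.7, 8.70, 9.80 and 10.3 CPM with 3C. The 3C kidneys lay above the DMSO kidneys without overlap, and of the 32 genes only Klkb1 did so, beside 1.72% of all genes. None was lower without overlap, beside 5.35% of all genes. Its log2 fold change was 0.46 ± 0.14 (unadjusted p = 0.00843, adjusted p = 0.263). Plaur, the gene that fell in fibroblasts, measured 14.7, 11.9, 8.29 and 11.3 CPM with DMSO and 5.88, 8.64, 9.80 and 7.56 CPM with 3C, which overlapped (-0.51 ± 0.19, unadjusted p = 0.0208, adjusted p = 0.332). F5 had 0.51 ± 0.23 (unadjusted p = 0.0465). The median over the 28 was -0.17 and over all genes 0.004. The summed macrophage markers were 443 to 492 CPM in DMSO and 293 to 446 CPM in 3C kidneys, which overlapped. The fibroblast markers were 507 to 676 and 249.7 to 444 CPM and the mural cell markers 293 to 353 and 179.7 to 274 CPM, both without overlap. Their part in these values was not tested. In liver all 32 were tested, none was called by edgeR (0% of all genes) or DESeq2 (0.0153% higher and 0% lower), and neither tool gave an unadjusted p under 0.05 for any of the 32. Log2 fold changes there ran from -0.60 to 0.39 with a median of 0.05, and none of the 32 was free of overlap, beside 0.560% of all genes higher and 1.23% lower. The interaction of 3C with tissue gave no call in edgeR or DESeq2, with 1 and 2 genes at an unadjusted p under 0.05.

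The other genes of the pathway were taken as a list of 36 regulators that are not among the 32. In kidney with age 29 were tested and 5 were called higher and 1 lower, beside 5.68% and 0.407% of all genes, with a median log2 fold change of 0.26 beside 0.02. Among those higher, protease nexin 1 (Serpine2), a thrombin inhibitor, rose by 1.53 ± 0.26 on the log2 scale (adjusted p = 0.00548), the protein Z dependent inhibitor Serpina10 by 2.85 ± 0.27 (adjusted p = 0.000594), and annexin A2 (Anxa2), a plasminogen receptor, by 1.03 ± 0.13 (adjusted p = 0.00144, call lost in 3 of 14 alternatives). The membrane protease Tmprss6 rose by 2.17 ± 0.26 (adjusted p = 0.00126) and stabilin 2 (Stab2), a scavenger receptor, fell (-1.07 ± 0.27, adjusted p = 0.0304, call lost in 4 of 14 alternatives). The same 5 and 1 were called without old kidney replicate 2. In liver with age 30 were tested and only Serpine2 was called, higher, beside 1.69% of all genes (log2 fold change 1.35 ± 0.26 (SE), adjusted p = 0.0258, lost in 6 of 14 alternatives). The age effect of Tmprss6 differed between the tissues (liver minus kidney -2.58 ± 0.34, adjusted p = 0.00132).

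With 3C in fibroblasts 23 of the 36 were tested and 3 were called lower and none higher, beside 0.632% and 1.23% of all genes. Among these, tissue factor pathway inhibitor 2 (Tfpi2) fell (log2 fold change -1.13 ± 0.19 (SE), adjusted p = 0.0106, call lost in 1 of 12 alternatives, without 3C replicate 2), as did the protease-activated receptor F2rl1 (log2 fold change -1.30 ± 0.22 (SE), adjusted p = 0.0108, call lost in 1 of 12, without DMSO replicate 3). None of the list was called with 3C in kidney (31 tested, 4 at an unadjusted p under 0.05, 5 in DESeq2) or in liver (30 tested, none at that p in edgeR or DESeq2), and DESeq2 called none in either tissue.

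At the threshold of the deposited peak lists, more of the 32 genes had open chromatin at their starts in liver than in kidney, whereas at a stricter threshold the counts were close in young mice and the order turned in old mice. A deposited ATAC peak lay within 1 kb of an annotated start in every library for 27 of the 32 genes in young liver and 25 in old liver, beside 56.0% and 55.5% of all 24534 annotated genes. In kidney that held for 17 genes in young and 15 in old mice, beside 61.5% and 59.5% of all genes. With peaks kept only from a −log10 q of 5 upwards it held for 15 genes in young and 7 in old liver (42.5% and 43.0% of all genes) and for 14 in young and 12 in old kidney (55.0% and 52.4%). For 11 genes, among them F3, Fga, Proc, Plat, Plau, Plaur, Thbd and Vwf, all 12 libraries had a peak. For F2, F11, F12, F13a1 and Plg no kidney library had one. Peaks were called library by library and 3 libraries against 3 cannot give an exact permutation p below 0.1, so no test of age was made.

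Peak height and RNA level were ordered differently between the tissues for Fga. The Fga peak had a fold enrichment of 10.9, 9.73 and 10.4 in young and 9.15, 8.97 and 9.18 in old kidney, and of 2.71, 2.61 and 3.47 in young and 3.495, 2.74 and 2.13 in old liver. It was higher in all 6 kidney than in all 6 liver libraries, whereas the transcript was lower in kidney (8.11 on the log2 scale, liver minus kidney). Protein C had 7.58, 7.51 and 5.44 in young and 5.72, 4.66 and 5.69 in old kidney and 3.85, 5.21 and 4.31 and 2.96, 3.05 and 4.58 in young and old liver, and its old kidneys overlapped its young ones although its kidney transcript rose with age. Fgb had a peak in all 3 young livers (2.68, 3.39 and 2.47) and in none of the 3 old livers, and Fgg had one in all 6 livers (3.16, 3.76 and 3.59 in young, 2.12, 2.59 and 1.98 in old). Prothrombin had 4.94, 4.14 and 4.11 in young and 2.73, 3.48 and 3.31 in old liver and no kidney peak, old below young without overlap, while its liver transcript had a log2 fold change of -0.004 ± 0.239. Among genes with a peak in all 6 livers, F7, F10, Fgg, Serpinc1 and Cpb2 were likewise lower in old liver without overlap, and Plat and Plaur higher. The share of all genes that separate in this way was not counted. Fold enrichment depends on the depth and background of each library, which differ, and the peak lists of old liver held 112125 to 136849 peak intervals against 123776 to 130409 in young liver. Intervals with a −log10 q of 5 or more were fewer in every old liver (37960 to 43099) than in every young one (43297 to 48332), and the part of this in the lower or missing peaks of old liver was not tested.

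**Figure D5:**
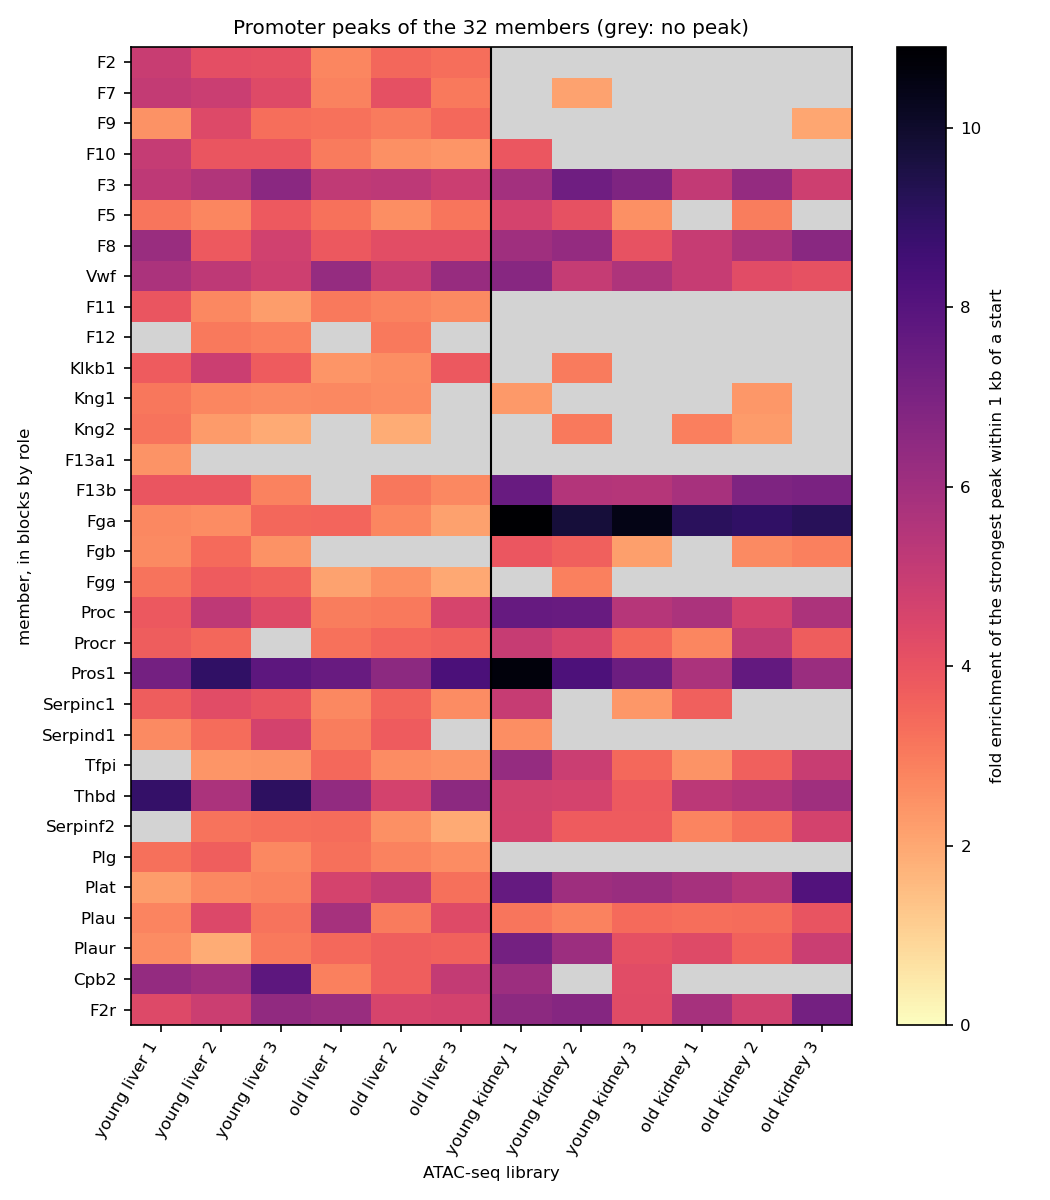
Fold enrichment of the highest peak within 1 kb of a start of each of the 32 genes (rows) in the 12 ATAC libraries (columns), grey where no peak was listed. The liver columns are filled for most plasma factors, 5 genes are grey across all 6 kidney columns, and Fga is strongest in kidney.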

How the data were processed

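RNA-seq had been run on kidney, liver and skin fibroblasts and ATAC-seq on kidney and liver. The deposited RNA files hold raw read counts per gene, which the authors made with Trimmomatic 0.39, HISAT2 2.2.1 on mm10 and HTSeq-count 0.12.4 without strand. The deposited ATAC files are peak lists that the authors called with MACS2 in each library after Bowtie2 alignment and removal of duplicates, with a fold enrichment and a −log10 of p and q for each peak. Rows without a gene name stayed out of totals and tests.

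Counts were tested with edgeR 4.0.16 in R 4.3.3 (TMM, filterByExpr with a minimum count of 10, quasi-likelihood F test) on the groups compared and on all genes. CPM was computed from library totals, and RPKM from CPM and GENCODE vM21 exon length. Replicate libraries were compared pairwise and none were duplicates (54 pairs, smallest chi-square per degree of freedom 7.78). The code was tested on simulated data, where of 200 genes changed 4-fold 183 were recovered for kidney age, 174 for liver age, 189 for fibroblasts with 3C and 134 for the age interaction.

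Kidney and liver libraries with the same number deviated together in young mice (correlations 0.104 to 0.452 over 4 pairs), so the numbers were taken to pair them there, and in no other comparison did every pair exceed 0.1. The members and lists were chosen with earlier results of these data known. Every member is accounted for. Members are given by library where the adjusted p is under 0.05 in an age or 3C comparison, or crosses it without old kidney replicate 2, and other regulators where called. Promoters are RefSeq sequences of GRCm38.p6. Some other members were named after their values were seen. Alternatives tried were DESeq2 1.42.0, other scaling and filters, a single threshold, a block for replicate number, and each library left out in turn. The promoters of Proc and Klkb1, which the rule also chose, are not shown. Of the other regulators counted in the text, 1 is not reported here by name.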

Additional observations from a re-analysis of the deposited data

Results flagged for a closer look

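A test for a single stray library was made on each group of 4 in which a member is given library by library, and on the hepatocyte marker sum. Of 63 groups tested 9 stood out. Chance gives about 1 in 20, but several of these genes were given by library because of such values, so the number that stood out cannot be read against it. Old kidney replicate 2 stood apart from the other old kidneys for F2 (64.0 CPM), F5 (40.01 CPM), Fga (202 CPM), Fgb (167 CPM), Fgg (163 CPM) and the summed hepatocyte markers (4289 CPM). Young kidney replicate 4 stood apart for Kng2 (561 CPM, the other young kidneys at 453 to 464 CPM), and old liver replicate 1 for F7 (355 CPM) and F10 (1113 CPM).

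The age effect differed between liver and kidney for F10, with a liver minus kidney difference of -3.29 on the log2 scale (edgeR adjusted p = 0.0412). F2 was also called, with -5.51 (edgeR adjusted p = 0.0407), but young kidneys held few counts of it and no difference is read from it. All 4 old kidneys were above all 4 young kidneys for both genes. The difference was lost in 14 of 22 alternatives for F10, among them without old kidney replicate 2, and in 13 of 21 for F2, and in the fit with the replicate block for both.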

How the results depend on the processing

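Of 417 alternative values for 28 results on single genes, 344 kept direction and call, 55 lost the call, 18 gained one and none reversed. Members called higher with age in kidney numbered 3 (among them F2, from which no age call is read), 6 at an adjusted p alone, and 1 to 7 when 1 library was left out (1 without young kidney replicate 2, 7 without old kidney replicate 3). Those called lower numbered 0, 1 at an adjusted p alone, and 0 to 1 on leaving out a library. In liver, leaving out a library gave 0 to 1 called higher (F13a1, without old liver replicate 4, which passed the filter only through the other old livers, so that no age call is read from it). In fibroblasts the 1 member called lower became 0 with library totals alone, 2 at an adjusted p alone, and 0 to 1 on leaving out a library (0 without DMSO replicate 1 or 2 or 3C replicate 2). The age interaction gave 2 called lower, 0 to 3 on leaving out a library, and 0 in a fit with the replicate block. With peaks kept only from a −log10 q of 5 upwards, members with a promoter peak in every library fell from 27 to 15 in young liver and from 25 to 7 in old liver (42.5% and 43.0% of all genes), against 14 in young and 12 in old kidney (55.0% and 52.4%). The causes were not tested. The block also took F13a1 with age in kidney (adjusted p = 0.0859) and Serpine2 with age in liver out of the calls, and same-numbered libraries shared only a number in those comparisons. Genes under about 1 CPM, such as F7, F9, F11, F12 and Plg in kidney, were limited by depth.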
